A study of Mus musculus with 2 samples.

Results

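Foxp4 is a forkhead transcription factor, and its binding sites were mapped by ChIP-seq, in which DNA bound to a protein is pulled down with an antibody and sequenced. Described here are the Foxp4 peaks at 10 genes of insulin and insulin-like growth factor (IGF) signalling. The 10 genes were chosen by a readout of these same peaks, for most of them that a peak had been assigned to the gene, so their values are a description and were not tested. A peak belonged to a gene if the deposited list named that gene as having the nearest start site, or if the peak midpoint lay within 100 kb of the gene body. By this rule 28 of the 3317 peaks in the list belonged to 8 of the 10 genes, and Insr and Irs1 had none.

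Cells of the stromal vascular fraction, a mixed population that includes the progenitors of fat cells, came from inguinal white fat of C57BL/6 mice. They were cultured for 3 days with 20% serum. They were then driven towards beige adipocytes, fat cells able to produce heat, for 48 h. The induction medium held insulin (5 µg/ml), the glucocorticoid dexamethasone (1 µM), the phosphodiesterase inhibitor isobutylmethylxanthine (0.5 mM), troglitazone (5 µM), T3 (50 nM) and 10% serum, so every site described was mapped in the presence of insulin. The Foxp4 ChIP library and the input DNA library, 1 of each, came from cells under the same treatment. Age and sex of the mice are not given in the sources used here, and a list of peaks measures no expression against which the labelled cell type could be checked. With 1 library there is no replicate error, no comparison of conditions and no test, and the read depth is unknown.

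Insulin and the IGFs act through related receptor tyrosine kinases. The activated receptors phosphorylate adaptor proteins such as Irs1, these recruit phosphoinositide 3-kinase through its regulatory subunit Pik3r1, and the lipid that this kinase makes activates Akt2 and its relatives. In preadipocytes the IGF1 receptor carries much of the signal of the insulin in an induction medium, and in mature fat cells insulin drives glucose uptake and lipid storage.

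At 2 of the 10 genes, Igf1r and Akt2, a peak reached into the promoter. The 250 bases before each start site are shown because they are the promoter sequence that these peaks touch. They are RefSeq sequence of GRCm38.p6, the assembly behind mm10, written 5′ to 3′ along the gene, with the bases covered by the peak in capitals.
Igf1r, chr7:67952007-67952256, plus strand: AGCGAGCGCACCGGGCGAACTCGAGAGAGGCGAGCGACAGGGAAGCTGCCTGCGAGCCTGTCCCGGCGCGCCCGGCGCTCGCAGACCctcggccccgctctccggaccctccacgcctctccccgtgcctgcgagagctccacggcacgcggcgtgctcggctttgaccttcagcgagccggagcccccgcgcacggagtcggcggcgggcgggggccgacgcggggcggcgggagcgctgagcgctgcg
Akt2, chr7:27591302-27591551, plus strand: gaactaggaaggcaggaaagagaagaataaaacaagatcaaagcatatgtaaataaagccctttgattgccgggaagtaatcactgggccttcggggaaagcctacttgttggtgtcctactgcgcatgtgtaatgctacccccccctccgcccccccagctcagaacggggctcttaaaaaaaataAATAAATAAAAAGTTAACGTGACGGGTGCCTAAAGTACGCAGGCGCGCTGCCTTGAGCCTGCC

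The Igf1r peak covered the 87 bases of this stretch that lie farthest from the start, and ended 164 bp before it. In Akt2 the peak covered the last 63 bases before the start and ran on into exon 1. These stretches differed in composition. The Igf1r stretch is 77.6% G and C with 42 CG pairs, and the Akt2 stretch 48.8% with 10, against a median of 52.4% (quartiles 45.2 to 61.2) and 6 CG pairs over the same 250 bases of 32851 RefSeq promoters.

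A set of 4 forkhead heptamers was searched on both strands in the promoter windows of 300 bases, from 250 before to 50 after each start. They cannot match at the same position. TGTTTAC occurred in 3.65% of all such windows, TGTTTGC in 5.07%, TATTTAC in 3.04% and TATTTGC in 2.76%, and any of the 4 in 13.5%. Among the 16 windows of 9 of the genes (Insr was not matched), 1 held a heptamer. This was the Akt2 window, where TATTTAC, read on the opposite strand as GTAAATA in the printed sequence, ended 196 bp before the start and 133 bp before the first base of the peak. The Igf1r window held none of the 4. TTG repeated 3 times occurred in 0.724% of all windows and in none of the 16. TTTG repeated 3 times occurred in 0.630% of all windows and in 1 of the 16, at an internal start of Akt2 (chr7:27607086-27607385) that no peak reached. These are matches of letters and not measured sites.

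Each peak has a score, a whole number without a stated unit that ran from 13 to 2569 over the list with a median of 65 (quartiles 41 to 104). The 28 peaks at insulin and IGF genes scored 15 to 397 with a median of 52.5. Of these, 9 (32.1%) were at or above the median of the list, where 50.1% of all peaks are. The scores therefore lay mostly in the lower part of the list, and 5 of the 28 (17.9%) exceeded 100, against 26.7% of all peaks. Peaks were 289 to 667 bp wide, with a median of 379.5 bp against 393 bp overall.

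**Figure D1:**
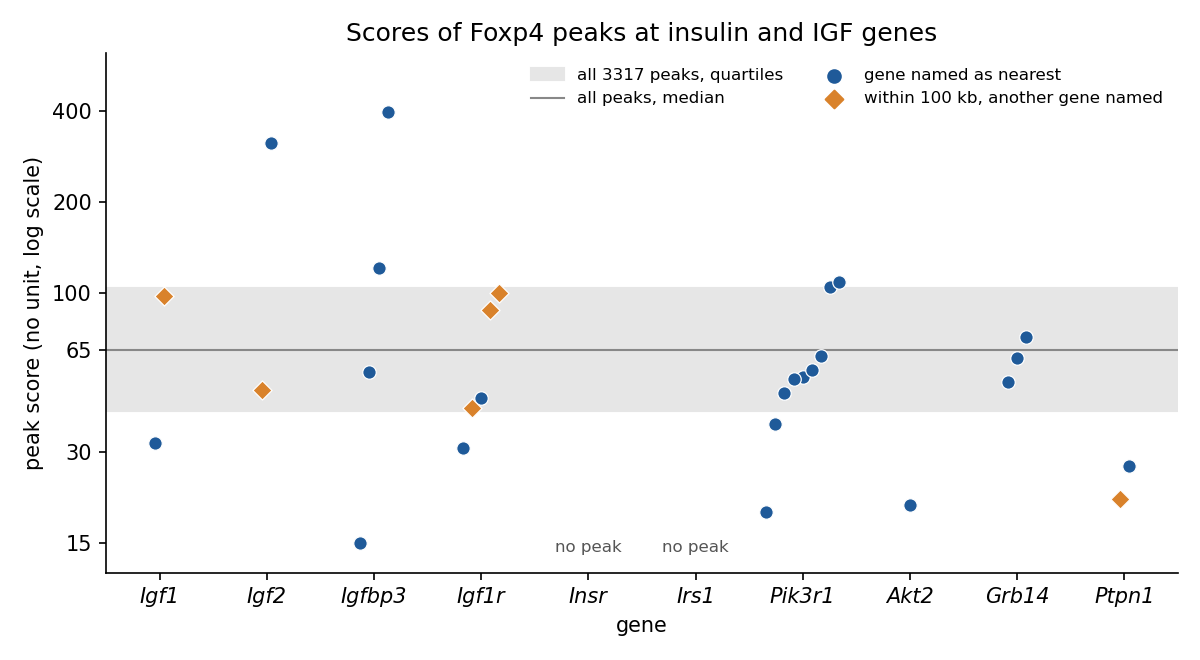
Score of every peak at the 10 genes on a log axis, with circles for peaks whose nearest start site is that gene and diamonds for peaks within 100 kb that the list names for another gene. The grey band and line are the quartiles (41 to 104) and median (65) of all 3317 peaks; the peaks at Igfbp3 (397) and Igf2 (312) stand highest and Insr and Irs1 have none.

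By nearest start site 8 of the 10 genes had a peak, against 9.11% of 21883 protein-coding genes. Within 100 kb of the gene body it was also 8 of 10, against 27.6%. A peak within 1 kb of a start site was named for 2 of the 10, against 1.46%. Nothing is read from these shares, because the genes were chosen on such peaks. The genes were also long, with a median gene body of 68.6 kb against 17.2 kb for all protein-coding genes, and the part of length in the counts was not tested. Most sites were far from start sites: 23 of the 28 peaks (82.1%) lay more than 10 kb from the nearest one, against 72.3% of all peaks. Relative to the gene they belonged to, 16 peaks were upstream, 6 inside and 6 downstream.

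Igf1 encodes IGF1, the growth factor that mediates much of the action of growth hormone (chr10:87858265-87937047). One peak lay in its intron 2 of 4, 19.3 kb from the start site, with a score of 32 (chr10:87880140-87880648). A second, 63.3 kb past the end of the gene, scored 98 and lay on a (TTG)n repeat (chr10:88000127-88000618). The list names that peak for the pseudogene Tyms-ps, whose start site is 33.7 kb away. By distance to the gene body Igf1 is the nearest protein-coding gene, but its 5′ end is 142 kb from the peak. The stronger of the 2 Igf1 sites by score was therefore the one outside the gene.

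Igf2 encodes the fetal growth factor IGF2 and is expressed from the paternal copy in most tissues (chr7:142650768-142666816). Its peak was the second highest of the 28, with a score of 312 (rank 123 of 3317), and lay 5.70 kb upstream of the start (chr7:142672277-142672751). It was annotated to a (CAA)n repeat, which is a TTG repeat on the other strand. The site is in the interval between Igf2 and Ins2 and is almost as close to the body of Ins2, at 6.14 kb. Farther out, 32.6 kb from the Igf2 body, a peak of score 48 was named for Ins2, a mouse insulin gene, 19.7 kb from its start site (chr7:142699250-142699615). None of the 4 Igf2 promoter windows was reached by a peak.

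Igfbp3 encodes the main carrier of IGFs in blood, which also holds them away from their receptor (chr11:7206086-7215498). It was named for 4 peaks, all upstream and all intergenic. The nearest, 29.3 kb from the start, scored 55 on a Tigger7 DNA transposon (chr11:7242931-7243430). The others lay much farther away, at 455 kb with a score of 15, at 602 kb with 121 and at 644 kb with 397. The last of these (chr11:7857604-7858134) was the highest of the 28 peaks and ranked 73 of 3317. No other protein-coding gene lies in the 1216 kb between Igfbp3 and Tns3, and the 397 peak is 574 kb from the body of Tns3. Within 100 kb of Igfbp3 there was 1 peak, so the highest score of the gene set belongs to a site whose link to the gene rests on the nearest start site alone.

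Igf1r, the receptor for both IGFs, is the longest of the 10 genes at 281 kb (chr7:67952257-68233668) and had 5 peaks. The promoter peak scored 45, with its centre 494 bp upstream of the start (chr7:67951434-67952093). Intron 2 of 20, which is long, held 2 peaks: one of score 31 at 65.6 kb from the start (chr7:68017661-68018008) and one of score 100 at 177 kb (chr7:68129201-68129616). The list assigns the second to Pgpep1l, whose start site is 135 kb away, so the highest peak inside Igf1r is not counted for Igf1r by nearest start site. Past the 3′ end, a peak of score 42 lay in exon 3 of the non-coding RNA Gm16157, 33.2 kb from the body of Igf1r, and was named for Pgpep1l at 2.62 kb (chr7:68266557-68267149). A peak of score 88 in intron 3 of Fam169b was named for Gm16157 and lay 79.6 kb from Igf1r (chr7:68313134-68313472). By score, the 2 peaks named for Igf1r (31 and 45) were lower than 2 of the 3 that were named for other genes. Those 3 were the peak of 100 inside Igf1r and the peaks of 42 and 88 past its 3′ end.

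Insr, the insulin receptor (chr8:3150922-3279649), had no peak within 100 kb. The closest lay 367 kb away with a score of 440 and was named for Retn, which encodes the adipocyte hormone resistin (chr8:3646714-3647200). Irs1, the adaptor that carries the signal of both receptors (chr1:82233105-82291439), had none either. Its closest, with a score of 80, was 168 kb away and named for Rhbdd1 (chr1:82459559-82459986). The gene bodies of Insr and Irs1 measure 129 kb and 58.3 kb. That no peak is listed says nothing about binding below the threshold of the list.

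**Figure D2:**
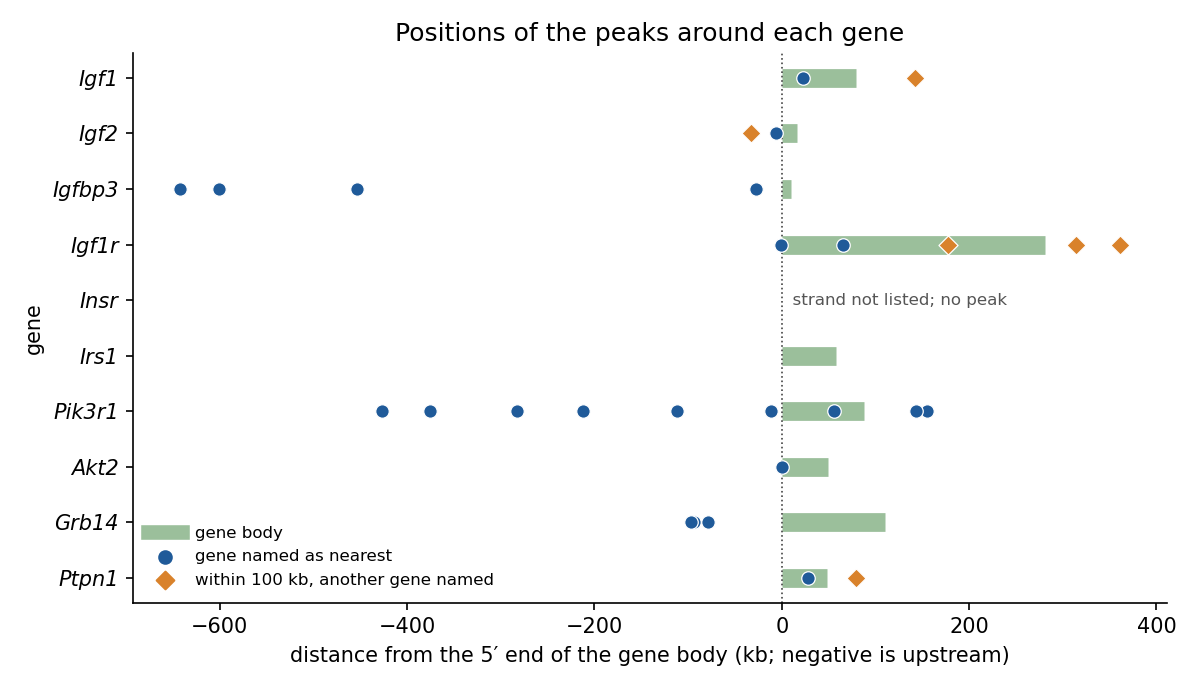
Positions of the 28 peaks relative to the 5′ end of each gene body in kb (negative is upstream), with green bars for gene bodies, circles for peaks whose nearest start site is that gene and diamonds for peaks named for another gene. Igf1r and Akt2 have a peak at the start, the peaks of Pik3r1 run from 427 kb upstream to beyond the 3′ end, and those of Grb14 lie together 78.8 to 97.4 kb upstream.

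Pik3r1, the main regulatory subunit of phosphoinositide 3-kinase, binds phosphorylated Irs1 and holds the catalytic subunit (chr13:101680761-101768217, minus strand). It was named for 9 peaks, the most of the 10 genes. The promoter table gives it a start for a long form at position 101768217 and a start for short forms at 101692630, 75.6 kb apart. In order of rising coordinate, which is from downstream to upstream of the gene, the first peak (chr13:101612855-101613205) scored 53 and lay 67.7 kb past the 3′ end. The second (chr13:101624344-101624696) scored 56 and lay 56.2 kb past it. These 2 are 11.5 kb apart, the closest pair of the series of 9.

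The third peak (chr13:101712576-101712935) scored 52 and was the 1 inside the gene, in intron 2 of 15 of the long form. It lay 20.1 kb upstream of the short-form start, so it is intronic for one form and upstream for the other. The fourth (chr13:101779260-101779562) scored 47, 11.2 kb upstream of the long-form start, on a (TTTTTG)n repeat. It was the peak closest to a Pik3r1 start site, and neither promoter window was reached by a peak.

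The other 5 continued upstream of the long-form start. The fifth (chr13:101879699-101880311) scored 105 at 112 kb, and the sixth (chr13:101980147-101980626) scored 109 at 212 kb. These 2 were the highest of the 9 and the only ones at or above the median score of the list. They were also the widest, at 613 and 480 bp against 298 to 360 bp for the rest. The seventh (chr13:102050615-102050912) scored 19 at 283 kb, the eighth (chr13:102143892-102144201) scored 62 at 376 kb, and the ninth (chr13:102194722-102195069) scored 37 at 427 kb. Score did not fall steadily with distance from the gene: the weakest site lay between sites of 109 and 62.

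**Figure D3:**
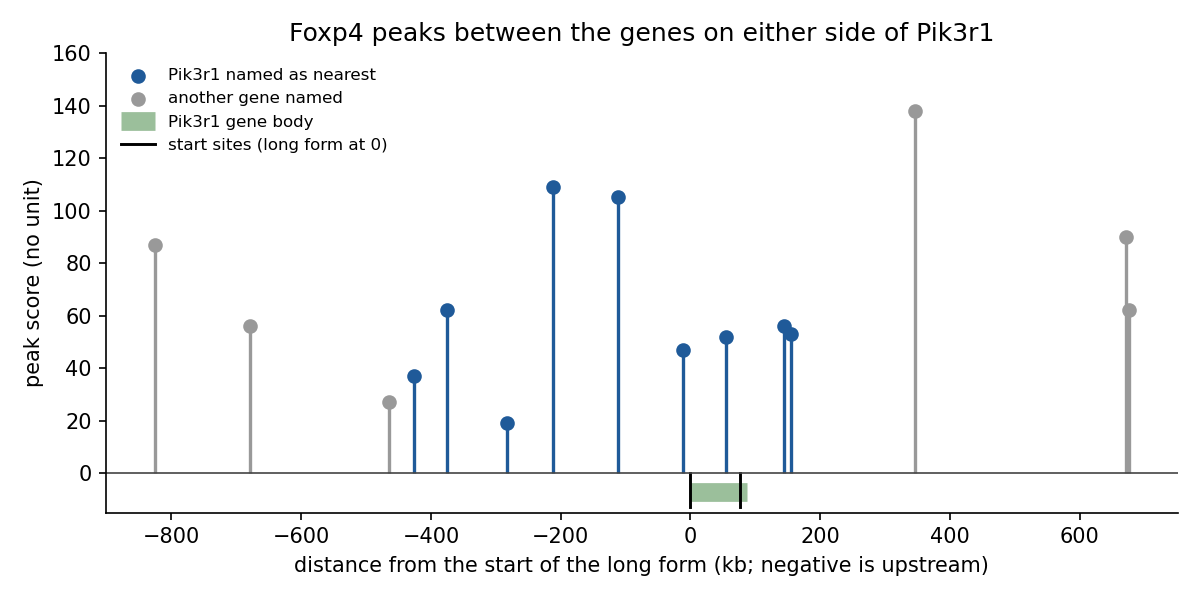
Score of each of the 15 peaks between the protein-coding neighbours of Pik3r1 against its distance in kb from the long-form start (negative is upstream), with the gene body in green and both start sites marked. The 9 blue peaks are named for Pik3r1 and reach 105 and 109 at 112 and 212 kb upstream; the 6 grey ones are named for other genes.

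The 9 peaks spanned 582 kb with a median spacing of 79.3 kb (11.5 to 101 kb). Pik3r1 lies between wide intervals free of other protein-coding genes, 847 kb on the side of Slc30a5 and 925 kb on the side of Cd180. The upstream interval held 9 peaks (9.73 per Mb), of which 6 were named for Pik3r1 and 3 for Cd180. The first of those 3, with a score of 27, lay 464 kb from the long-form start of Pik3r1 and 461 kb from that of Cd180. The downstream interval held 5 (5.90 per Mb), of which 2 were named for Pik3r1 and 3 for the non-coding RNAs 5930438M14Rik and 4922502H24Rik, the last with the highest score between the neighbours (138). Chromosome 13 as a whole held 1.73 per Mb. Nothing is read from these densities, since Pik3r1 was picked for peaks that lie in both intervals. Sites between the neighbours were thus not limited to the 9 that carry the name Pik3r1.

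Over the whole list, 5 of the 2462 genes named had 9 or more peaks and 1908 had exactly 1. Taking every run of 9 consecutive peaks on a chromosome, 27 of 3154 runs (0.856%) were no wider than that at Pik3r1, and the median run spanned 4.89 Mb. Nothing is read from this share either, because a gene picked for its 9 peaks has a narrow run by that choice. Runs overlap, so these 27 fall in 16 places. Among the 16 the Pik3r1 run had a median score of 53 and a highest score of 109. Of the other 15 places, 1 had a lower highest score, that around Irf2bp2 (95), and 14 had higher ones, among them those around Marcks (193), Mir21a (308) and Adamts5 (511). At Pik3r1 2 of the 9 scores reached the median of the list. One of the other places held Cblb, an insulin pathway gene described below.

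**Figure D4:**
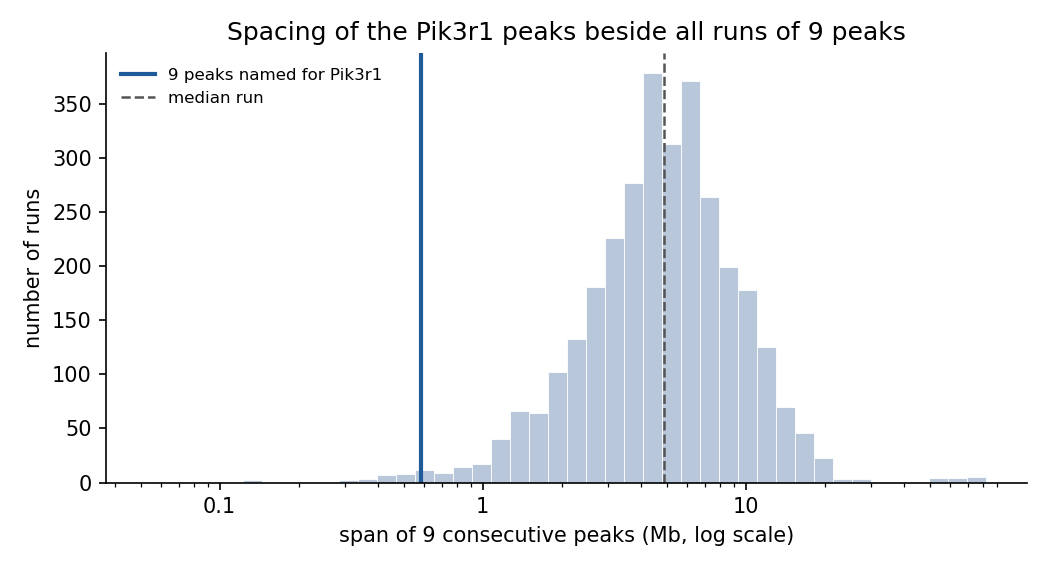
Number of runs of 9 consecutive peaks by the length they span in Mb, on a log axis, for all 3154 overlapping runs. The blue line marks the run at Pik3r1 (582 kb), which was picked for its 9 peaks, and the dashed line the median run (4.89 Mb).

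Akt2 encodes the Akt kinase through which insulin drives glucose transport in fat and muscle (chr7:27591552-27640826). Its 1 peak (chr7:27591489-27591862) was centred 123 bp past the start and annotated to the 5′ UTR in exon 1. The score of 20 ranked 3166 of 3317, so the site closest to a start in the whole set was also one of the weakest by score. No other peak lay within 100 kb of Akt2, and the next was 110 kb away with a score of 79, named for Sertad1.

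Grb14 and Ptpn1 encode proteins that dampen the signal. Grb14 is an adaptor that binds the activated insulin receptor and inhibits it (chr2:64912476-65022766). It was named for 3 peaks with scores of 72, 51 and 61, at 78.8, 93.5 and 97.4 kb upstream of its start. All 3 lay inside the neighbouring gene Cobll1, in its introns, within 18.6 kb from first midpoint to last (chr2:65101456-65101766, chr2:65116128-65116470 and chr2:65119997-65120381). The list nevertheless names Grb14 as having the nearest start site, and there was no peak in Grb14 itself. The third was the peak just inside the 100 kb limit.

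Ptpn1 encodes PTP1B, the phosphatase that removes phosphate from the insulin receptor (chr2:167930750-167979385). A peak of score 27 lay in its intron 1 of 8, 26.7 kb from the start (chr2:167958838-167959126). Another of score 21 lay 30.8 kb past its end, in intron 1 of Ripor3, for which it was named at 443 bp from the start site (chr2:168009932-168010368). Their scores ranked 2952 and 3149 of 3317. Of the 5 peaks of Grb14 and Ptpn1, only that in intron 1 of Ptpn1 lay inside its own gene. None was in a promoter of Grb14 or Ptpn1. Over the whole list 8.38% of peaks are annotated to a promoter, so nothing is read from this.

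Repeats of T runs and single G (TTG to TTTTTG, either strand) were annotated at 3 of the 28 peaks (10.7%), against 6.39% of all peaks. These were the sites at Igf2 (312), downstream of Igf1 (98) and upstream of Pik3r1 (47). Any annotated repeat was found at 5 of 28 (17.9%, against 23.3%), the other 2 being Tigger7 and a (TAGA)n repeat at Igfbp3. Across the 28 peaks score and width had a Spearman correlation of 0.19, and across all 3317 one of 0.38. These correlations are across peaks of 1 library, in which a wider peak can hold more reads.

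Beyond the 10 genes, 14 of 72 other insulin and IGF pathway genes had a peak by nearest start site, against 9.11% of protein-coding genes (19.4% of the 72). Within 100 kb of the gene body 31 of the 72 did (43.1%, against 27.6%), and a peak within 1 kb of a start was named for 2 of the 72 (2.78%, against 1.46%). The 72 genes were listed with earlier results of these peaks known and no test was made, so nothing is read from these shares. The lengths of the 72 genes were not compared with those of all genes, and the part of length in the shares was not tested. The 14 genes had 25 peaks with a median score of 53, against 65 for all peaks. Of the 25, 10 were at or above that median, where 50.1% of all peaks are. By annotation 13 were intronic, 10 intergenic and 2 promoter peaks, where all peaks are 38.3%, 50.5% and 8.38%.

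Trib1, a pseudokinase gene whose family members bind Akt or direct proteins to degradation, had the highest score of these, 980 (rank 11) at 92 bp upstream of the start (chr15:59648302-59648823). Its relative Trib2 had 2 peaks of 111 and 101, both intergenic and 190 to 226 kb upstream. Foxo3, a forkhead factor that Akt keeps out of the nucleus, had 4 peaks. The highest (319) lay 1.22 kb upstream of the start and the other 3 (102, 62 and 42) in intron 2. Cblb, a ubiquitin ligase that acts on receptor signalling, also had 4, with 121 and 83 in intron 3, 47 in the last intron and 47 upstream.

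By nearest start site 58 of the 72 genes had no peak. Among those with a peak, regulators of IGF availability included Pappa and Pappa2, proteases that free IGFs from their binding proteins. Pappa had 3 peaks (94, 53 and 23) and Pappa2 had 2 (112 and 35), none closer than 104 kb to a start. The feedback inhibitors Socs3 (76 and 51) and Socs2 (62) had intergenic peaks. Single intronic peaks lay at Gab1 (52), a docking protein, on a (CAA)n repeat, and at the phosphatase gene Ptpn2 (37). Stc2, which encodes an inhibitor of Pappa, had 1 peak of score 25, intergenic and 113 kb upstream. Ins2 (48) is the site described with Igf2, and Sos2 and Sh2b2, named after their values were seen, had scores of 18 and 20. Near start sites, the peaks of Trib1 and Foxo3 were the 2 highest of the 25, whereas that of the adaptor gene Sh2b2, 363 bp from the start, was among the lowest (20).

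**Figure D5:**
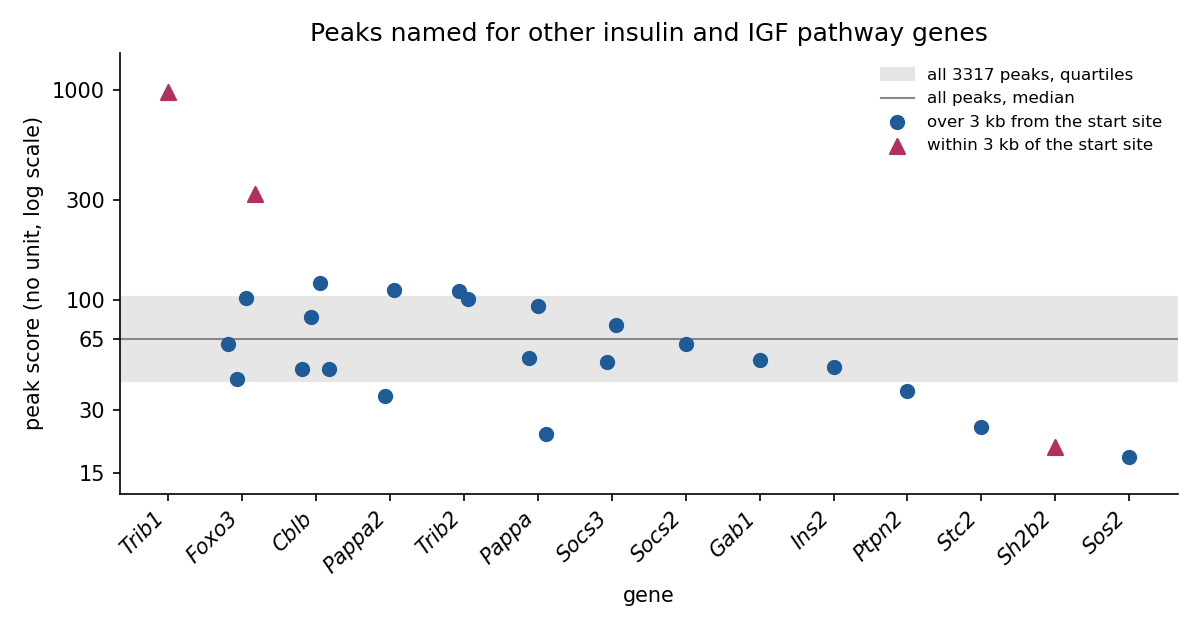
Scores on a log axis of the 25 peaks named for 14 other insulin and IGF pathway genes, with triangles where the start site is at most 3 kb away and the quartiles (41 to 104) and median (65) of all peaks as a grey band and line. Trib1 (980) and Foxo3 (319) stand above the rest, both near the start site.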

How the data were processed

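Per the labels' protocols, an antibody to Foxp4 was used to precipitate sonicated chromatin. The authors deposited 1 peak list on mm10, a narrowPeak file annotated with HOMER's annotatePeaks.pl, per the file headers. The submitters' processing notes list, without settings, deepTools 3.3.0, MACS2, Bowtie2, Picard and SAMtools. The score of each peak in the deposited list has no stated scale and may mix enrichment with depth, so it was used only to rank and describe peaks. The input library was not used here.

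Peaks were read with Python 3.11.15 and pandas 2.3.3, and 1 line without a peak was left out. Positions are peak midpoints. Gene bodies, strands and promoters are RefSeq's (GRCm38.p6), in which 2459 of 2462 nearest genes were found, and the file's start site agreed within 2 bp for 25 of 26 member peaks with one listed. The code was tested on simulated peaks. Members and lists were chosen with earlier results of these data known. Named genes are the 10 members, genes named for peaks within 100 kb of them, and the 12 highest-scoring of the other pathway genes; names beyond these were chosen after their values were seen. One gene of the planned pathway list is not reported here and enters no count of that list. Alternatives covered score limits, windows and merging.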

Additional observations from a re-analysis of the deposited data

How the results depend on the processing

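Of 17 alternatives, 13 left the counts within 1.5 times their value. The 28 peaks fell to 6 when only those inside a gene body counted, and to 9 when only scores of at least the median of all peaks were kept. These 9 belong to 6 of the 8 genes. By nearest start site alone, 4 of the 8 still had one at that limit, namely Igf2, Igfbp3, Pik3r1 and Grb14. The 14 other pathway genes became 31 within 100 kb of the gene body. The 9 peaks of Pik3r1 became 8 with scores of at least 30 and stayed 9 when peaks under 1 kb apart were merged. Searching only the 250 bases before each start, an alternative chosen after seeing the data, left 1 window with a forkhead heptamer. No paired analysis was possible because there is 1 library per group. The depth of the library is unknown, so the limit of detection at Insr and Irs1 is too.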

Other observations

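At 2 other promoters of the pathway, chosen after their values were seen, a peak overlapped the window but carried the name of another gene. A peak of score 62 overlapped the RefSeq promoter window of Pik3ca, the catalytic partner of Pik3r1 (chr3:32396918-32397269). The list names it for Zmat3 at -31428 bp, which is farther away than this RefSeq start of Pik3ca. Nearest distance to RefSeq starts would therefore not give the name Zmat3, and the reason for it was not tested. A peak of score 83 overlapped that of Phlpp1, a phosphatase gene that acts on Akt, but is named for the non-coding gene Gm20753 at 19 bp (chr1:106171394-106171693).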
